A study of Homo sapiens with 28 samples.

Results

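U266 is an established human myeloma line, a malignant plasma cell grown in culture, and its 7 arrays of 28 in the series describe what arsenic did to its RNA. The arrays were chosen by their titles alone. Control 1 and the cultures given darinaparsin (DAR), an organic arsenical, at 4 µM for 6 and 24 hours form the first set. Control 2 and the cultures given arsenic trioxide (ATO), the inorganic arsenical, at 2 µM for 6, 24 and 48 hours form the second. Each treatment and time had 1 array, and the 2 controls were untreated cells at 0 hours, so no array controls for the time in culture. The other 3 myeloma lines, MM.1s, KMS11 and 8226/S, had the same 7 arrays each, with ATO at 2 µM and DAR at 3, 3 and 2 µM. U266 is 1 line grown in medium with serum, and nothing in the labels says whether arrays came from separate cultures. The p-values here therefore measure the spread between arrays of different treatments, times or lines, and not between replicates.

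Trivalent arsenic binds the thiol groups of proteins. Cells answer such binding through several known programmes: MTF-1, a zinc-sensing factor, switches on metallothioneins and the zinc exporter SLC30A1; NRF2 switches on antioxidant enzymes once its thiol-bearing inhibitor KEAP1 lets it go; HSF1 switches on chaperones when proteins misfold. In myeloma, IRF4 and PRDM1 keep the plasma cell programme running, and U266 is known for high cyclin D1 and for making its own interleukin-6. Sterol genes follow SREBP factors, immediate early genes follow growth signals through serum response factor, and interferon genes follow STAT and IRF factors.

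The promoters below are shown because the results turn on their genes: MT2A, MT1X and SLC30A1 are metal-responsive genes that rose with ATO, EGR1 the deepest called fall with ATO, and ISG15 is the interferon gene described at length. Each is the 250 bases before the RefSeq start in GRCh38.p14, read 5′ to 3′ on the gene's strand. MT2A lies at chr16:56608334-56608583 and MT1X at chr16:56682220-56682469, both on the plus strand. SLC30A1 lies at chr1:211579162-211579411 on the minus strand, EGR1 at chr5:138465229-138465478 and ISG15 at chr1:1013247-1013496, both on the plus strand. Capitals mark TGCNCNC, the core of the metal response element, in the first 3, the CArG box of serum response factor in EGR1, and TTTC, any 2 bases and TTTC, the core of the interferon-stimulated response element, in ISG15, each on either strand.
MT2A: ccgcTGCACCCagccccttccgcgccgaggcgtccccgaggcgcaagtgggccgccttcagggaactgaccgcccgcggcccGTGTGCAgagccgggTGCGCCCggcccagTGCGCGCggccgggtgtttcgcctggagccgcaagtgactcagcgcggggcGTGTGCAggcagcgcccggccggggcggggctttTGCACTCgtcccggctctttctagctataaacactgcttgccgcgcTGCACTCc
MT1X: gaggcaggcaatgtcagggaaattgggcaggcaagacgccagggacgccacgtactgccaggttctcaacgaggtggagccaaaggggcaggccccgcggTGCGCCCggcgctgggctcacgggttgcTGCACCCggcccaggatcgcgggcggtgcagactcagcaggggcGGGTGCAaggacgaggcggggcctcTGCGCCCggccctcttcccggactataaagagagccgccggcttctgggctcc
SLC30A1: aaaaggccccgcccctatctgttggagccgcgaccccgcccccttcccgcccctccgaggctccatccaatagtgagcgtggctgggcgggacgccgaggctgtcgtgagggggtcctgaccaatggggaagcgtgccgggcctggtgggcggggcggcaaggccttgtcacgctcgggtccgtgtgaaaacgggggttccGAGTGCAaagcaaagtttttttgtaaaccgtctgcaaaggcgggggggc
EGR1: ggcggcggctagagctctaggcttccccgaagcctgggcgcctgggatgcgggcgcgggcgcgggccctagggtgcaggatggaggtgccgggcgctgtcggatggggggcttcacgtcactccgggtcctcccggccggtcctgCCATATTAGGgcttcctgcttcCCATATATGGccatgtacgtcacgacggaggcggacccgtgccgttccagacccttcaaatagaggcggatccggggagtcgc
ISG15: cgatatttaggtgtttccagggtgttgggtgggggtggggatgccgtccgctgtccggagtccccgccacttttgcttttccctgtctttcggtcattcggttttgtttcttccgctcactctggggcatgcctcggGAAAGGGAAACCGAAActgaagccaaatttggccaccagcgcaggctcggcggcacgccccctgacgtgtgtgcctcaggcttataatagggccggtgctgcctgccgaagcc

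MT2A held 7 metal response cores, with centres 5 to 243 bases before the start, MT1X held 4, and SLC30A1 held 1. A core occurred in 49.1% of 35116 promoter windows of this length, and 4 or more in 1.77%. EGR1 held 2 CArG boxes, which occurred in 1.2% of windows, and ISG15 held 2 overlapping interferon cores, which occurred in 3.0%. Other genes of these groups varied: FOS, IER2, ZFP36 and JUNB held 0 CArG boxes in the same window. IRF9 held 0 interferon cores, MX1 0 or 1 by start, IFI44 1 and IFIT1 2. A match of letters is a description and shows no binding.

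Values are the deposited signals of a linear scale, and a change is the difference of log2(signal + 29) between a treated array and the control of its set. All 5 treated arrays correlated better with their own control (0.944 to 0.958) than with the other (0.887 to 0.909), and the 2 controls correlated at 0.908. In control 2, 7364 of 36703 probe sets read at least 1 log2 unit above control 1 and 2080 at least 1 below, so a level is compared within its set. Of 10 plasma cell markers 8 read above the array median on all 7 U266 arrays; CD38 (40.5 in control 2) was below it on the set 2 arrays and MZB1 on the later ATO arrays. The 10 had a summed signal of 86210 to 107900 in the controls and 35230 to 110300 in the treated arrays. Marker lists of T and NK cells, myeloid cells, B cells, erythroid cells and platelets, and stroma and epithelium each summed to at most 1875 on any U266 array.

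With limma's moderated test on the U266 arrays alone and Benjamini-Hochberg adjustment, 0 of 36703 probe sets passed adjusted p under 0.05 for all 5 treated arrays against control, although 2891 (7.88%) had an unadjusted p under 0.05. For ATO, 23 passed (0.0627%), which at 1 probe set a gene were 12 genes (0.0777% of 15437), 10 higher (0.0648%) and 2 lower (0.013%). For DAR 0 passed, with 2521 (6.87%) at an unadjusted p under 0.05. A limma fit that took its residual spread from all 4 lines, added after these counts were seen, called 141 genes for the 5 treated U266 arrays (0.913%), 88 higher (0.57%) and 53 lower (0.343%). The same fit called 81 genes for ATO (0.525%), 42 higher (0.272%) and 39 lower (0.253%), and 19 for DAR (0.123%), 15 higher (0.0972%) and 4 lower (0.0259%). In probe sets these were 260 (0.708%), 148 (0.403%) and 39 (0.106%). The fit with the spread of 4 lines also holds treatment terms shared by the lines, so its changes over 5 arrays depend partly on the other lines. HMOX1 over 5 arrays had 3.04 in it and 2.83 on the U266 arrays alone. The ATO and DAR changes of HMOX1 were the same in both fits (3.66 and 1.90). On single arrays, genes changed by at least 1 log2 unit numbered 549 higher (3.56%) and 464 lower (3.01%) at 6 hours of ATO, 527 (3.41%) and 710 (4.6%) at 24 hours, and 783 (5.07%) and 762 (4.94%) at 48 hours. With DAR they numbered 941 (6.1%) and 906 (5.87%) at 6 hours and 826 (5.35%) and 739 (4.79%) at 24 hours. Adjusted p-values in what follows come from the fit with the spread of 4 lines unless the U266 arrays alone are named. Rose and fell are said of what passed in that fit.

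The ATO calls rest on 1 control array and the calls over 5 arrays on 2. For ATO or DAR alone, no spread between controls enters the p-value, since each has 1. On the U266 arrays alone the spread is between times of treatment, so a change with time counts as spread. Over 5 arrays a difference between ATO and DAR counts as spread as well. A gene that answers 1 compound is thus harder to call there: MT2A had an SE of 0.74 over 5 arrays and 0.30 for ATO. In the fit with the spread of 4 lines the spread is between the time courses of the lines. Over 5 arrays it includes how the lines differ between ATO and DAR. Without control 1 the 260 probe sets called over 5 arrays became 36, and without control 2 they became 24. Leaving out a control leaves the U266 arrays of its compound with no baseline. The value over 5 arrays then comes from the other compound in U266 and from how the compounds differ in the other lines. Calls over 5 arrays kept or lost without a control are to be read so throughout, and do not test 1 control array alone. Of 60 genes named here and called over 5 arrays, MT2A and MT1G kept their call whichever array was left out. Without control 2 their kept calls thus draw on the other lines. Of 43 named and called for ATO, 28 kept it whichever other array was left out, and none of 15 named and called for DAR did. Without the trend between spread and signal in limma, 45 of the 60, 24 of the 43 and 14 of the 15 lost their call.

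Metallothioneins, small proteins that bind zinc, copper and arsenic through their cysteines, made the largest response in U266. Of the 12 genes listed for metals 9 were tested, and 7 rose with ATO: MT1E, MT1F, MT1G, MT1H, MT1X, MT2A and SLC30A1. MT2A read 571 in control 2 and 32721, 24631 and 18212 after 6, 24 and 48 hours of ATO. It read 186 in control 1 and 357 and 313 after 6 and 24 hours of DAR, below every ATO array by a wide margin. Its ATO change was 5.35 on the log2 scale (SE 0.25, 3 arrays, adjusted p = 2.37e-10, limma), and its DAR change was 0.76 (adjusted p = 0.345).

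MT1X read 129 in control 2 and 25585, 18255 and 13480.0 after 6, 24 and 48 hours of ATO, a change of 6.87 (SE 0.37, limma adjusted p = 1.92e-09). MT1H read 46.7 in control 2 and 23339, 17280.0 and 12510.0 after 6, 24 and 48 hours of ATO, a change of 7.83 (SE 0.37, limma adjusted p = 2.78e-10). On the DAR arrays MT1X went from 51.7 to 21.6 and 99.0 and MT1H from 52.4 to 32.8 and 29.8, all under 100. MT1G (ATO change 5.07), MT1E (4.61) and MT1F (3.84) followed, as did MT1HL1, a processed copy of the family outside the list (7.02). All of these probe sets carry the suffix that marks likely cross-hybridisation within a family, so which member made the signal is uncertain.

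SLC30A1, the zinc exporter that lowers zinc inside the cell, read 762 in control 2 and 7954, 5606 and 4044 after 6, 24 and 48 hours of ATO, and 567 in control 1 and 667 and 615 after 6 and 24 hours of DAR. All 3 ATO arrays were above both controls and both DAR arrays, with an ATO change of 2.84 (SE 0.34, limma adjusted p = 0.000238). In the U266 arrays alone MT1E, MT1G, MT1H, MT1X, MT2A and SLC30A1 also passed for ATO, and leaving out 1 array ended this for MT1E and SLC30A1. MT1F did not pass there at its brightest probe set, but another of its probe sets did (7.55), as did another of MT1E (7.62). MTF1, whose product senses zinc, read 1279.7 in control 2 and 1181, 1169 and 1211 after 6, 24 and 48 hours of ATO and did not pass, and neither did SLC39A10, a zinc importer (-0.20). All 7 ATO calls held whichever treated array was left out. Over 5 arrays the same 7 genes passed. Without control 2, when only the DAR arrays have a U266 baseline, MT1E, MT1F, MT1H, MT1X and SLC30A1 did not (adjusted p 0.0593 to 0.515, limma).

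**Figure D1:**
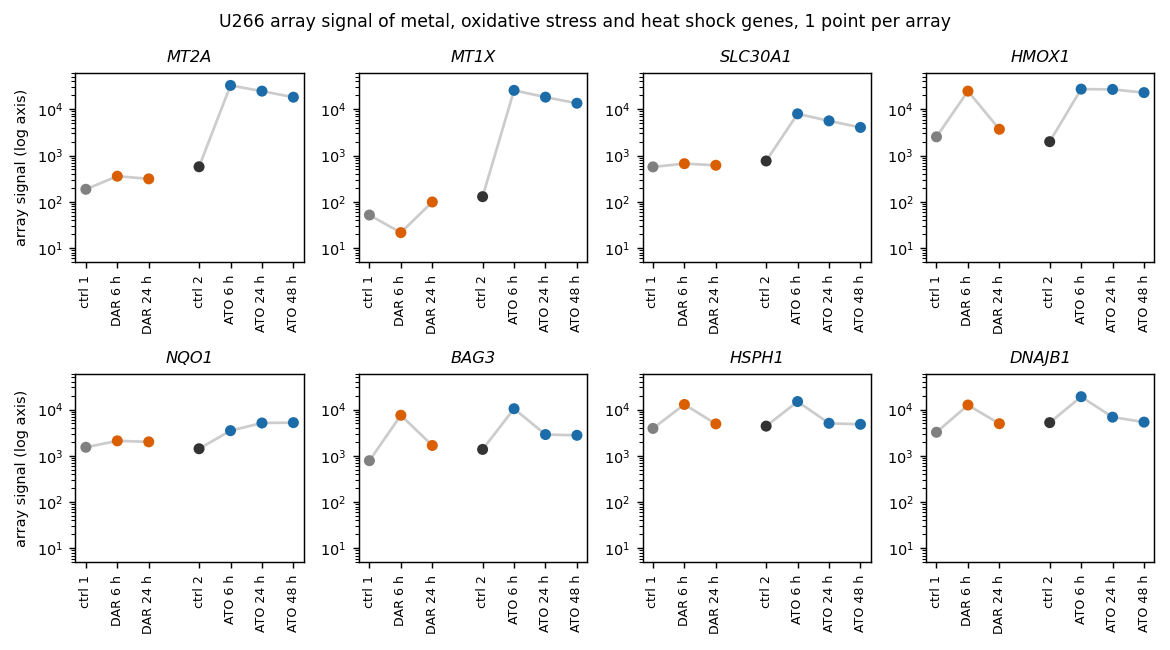
Signal of 8 stress genes on each of the 7 U266 arrays, on a log axis, with set 1 (control 1, DAR at 6 and 24 hours) and set 2 (control 2, ATO at 6, 24 and 48 hours). Each point is 1 array. MT2A, MT1X and SLC30A1 stood high on the 3 ATO arrays, and BAG3, HSPH1 and DNAJB1 stood highest at 6 hours of both compounds.

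NRF2 target genes were higher on the ATO arrays, and every call among them was a rise. Of 24 listed 21 were tested: 9 rose over the 5 arrays, 7 rose with ATO and none fell. The list's median change was 0.82, 1.07 and 0.92 at 6, 24 and 48 hours of ATO, against 0.02, -0.01 and 0.04 over all genes. At 6 and 24 hours of DAR it was 0.21 and 0.20. HMOX1, which breaks down heme, read 1992 in control 2 and 27208, 26819 and 22899 after 6, 24 and 48 hours of ATO. It read 2535 in control 1 and 24626 and 3694 after 6 and 24 hours of DAR, so the 6-hour DAR array reached the range of the ATO arrays and the 24-hour array did not. Its change was 3.66 with ATO (SE 0.49, limma adjusted p = 0.0011) and 1.90 with DAR (SE 0.52, adjusted p = 0.209).

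NQO1, a quinone reductase, went from 1421 to 3496, 5119 and 5214 on the ATO arrays, with no fall back by 48 hours (1.65, SE 0.27, limma adjusted p = 0.0058). SRXN1, which repairs oxidised peroxiredoxins, went from 1049.8 to 3796, 3814 and 3521 (1.79, SE 0.22, adjusted p = 0.00049). ME1, a source of NADPH, went from 1156 to 3157, 4137 and 3493 (1.60, SE 0.22, adjusted p = 0.00118). All 3 kept their ATO call whichever treated array was left out. GCLM, the modifier subunit of glutathione synthesis (1.32, adjusted p = 0.048), PIR (1.42, 0.0177) and the heme transporter SLC48A1 (1.73, 0.0449) also rose, but lost the call without the 24-hour or the 48-hour ATO array (limma adjusted p 0.0696 to 0.191).

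TXNRD1, the thioredoxin reductase whose selenocysteine arsenic binds, and SQSTM1, the autophagy receptor p62, rose over the 5 arrays by 0.66 and 1.04 (limma adjusted p = 0.0293 and 0.0121). SQSTM1 went from 8764 to 20556, 19707 and 16649 with ATO and from 8489 to 19768 and 12913 with DAR, every treated array above its control. NQO2, a relative of NQO1 outside the list, went from 1325 to 3227, 8905 and 7429 with ATO and from 2238 to 3833 and 4848 with DAR (ATO change 2.15, SE 0.34, limma adjusted p = 0.00438). KLHL21, a ubiquitin ligase adaptor, rose by 2.34 with ATO (adjusted p = 0.0106, and 0.0536 without the 24-hour array). Ferritin light chain FTL, at 40808 and 26263 in the controls, had an ATO change of 0.02 (adjusted p = 1). TALDO1 of the pentose phosphate pathway had -0.14 and read below its control on all 5 arrays without passing. Without control 1 none of the 9 list members called over 5 arrays kept its call (limma adjusted p 0.0682 to 0.716), and without control 2 HMOX1 alone did.

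Chaperone genes of the heat shock response were high at 6 hours of both compounds and closer to control by 24 hours. Of 21 listed 17 were tested, and BAG3, HSPH1, DNAJB1 and DNAJA1 rose over the 5 arrays. The list's median was 1.12, 0.39 and 0.23 at 6, 24 and 48 hours of ATO and 1.25 and 0.29 at 6 and 24 hours of DAR. BAG3, a co-chaperone that passes clients to autophagy, read 1375 in control 2 and 10419, 2880.4 and 2776 after 6, 24 and 48 hours of ATO. It read 785 in control 1 and 7529 and 1673 after 6 and 24 hours of DAR. Both 6-hour arrays exceeded every later array, and the change over 5 arrays was 1.86 (SE 0.26, limma adjusted p = 0.000909).

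HSPH1, the HSP110 chaperone, went from 4380.1 to 14880.0, 5042 and 4793 with ATO and from 3909 to 12865 and 4893 with DAR. It was the only gene of 15437 that was higher by 1.5 or more at 6 hours of both compounds and by under 0.5 at 24 hours of both. DNAJB1, the HSP40 that feeds clients to HSP70, went from 5211 to 18936, 6846 and 5347 with ATO and from 3227 to 12522 and 4941 with DAR. HSPA6, an HSP70 nearly silent in unstressed cells, went from 123 to 2305, 174 and 278 and from 41.6 to 2335 and 197, but at 2.35 (SE 0.56) it did not pass (limma adjusted p = 0.0534). HSPB1, the small chaperone HSP27, went from 2217 to 19505 and 2599 with DAR and from 5182 to 14705, 6486 and 4659.5 with ATO (adjusted p = 0.32). Mitochondrial HSPD1 had 0.17 and HSP90AA1 0.11 over 5 arrays, neither called. Without control 1 or control 2 none of the 4 called members kept its call (limma adjusted p 0.0874 to 0.697 and 0.0973 to 0.203).

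Among genes of the ATF4 stress response, which answers eIF2α phosphorylation by raising amino acid supply, 4 of 31 tested rose over the 5 arrays: TRIB3, SLC3A2, SLC7A5 and CTH. Of the 31, 18 read above control on every treated array and 0 below on every one, against 11.3% and 10.6% of all genes. TRIB3, an inhibitor of AKT, went from 1873 to 7319, 7139 and 4373 with ATO and from 1479 to 4453 and 2075 with DAR (1.47, SE 0.27, limma adjusted p = 0.00887). SLC3A2, the shared chain of cystine and leucine carriers, went from 2257 to 4923, 5503 and 4831 and from 3087 to 6355 and 4168 (0.99, SE 0.16, adjusted p = 0.00291). CTH, which makes cysteine, went from 792 to 3237, 2287 and 2280.1 and from 1334 to 6157 and 1863, highest at 6 hours of each compound. DDIT3, the factor CHOP, went from 575 to 2656 and 1350.5 with DAR and from 667 to 1242, 1257 and 1168 with ATO without passing over 5 arrays (1.24, adjusted p = 0.0533). ATF3 stood out on 1 array, from 969.8 to 7109 and 952 with DAR and from 2503 to 2849, 1619 and 1538 with ATO. The 4 calls were lost without either control (limma adjusted p 0.124 to 0.494 and 0.114 to 0.409).

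Endoplasmic reticulum folding genes leaned the other way. Of 20 tested, 9 read below control on all 5 arrays and 1, EDEM1, above, against 10.6% and 11.3% of all genes. The list's median was -0.54 and -0.70 at 24 and 48 hours of ATO. PDIA4, a disulfide isomerase, fell by 0.73 on the log2 scale over 5 arrays (limma adjusted p = 0.034), while EDEM1, which clears misfolded glycoproteins, rose by 0.99 (adjusted p = 0.00398). EDEM1 went from 783 to 1516, 1314 and 1532 with ATO and from 749 to 2003 and 1536 with DAR. The chaperone HSPA5 went from 16291 to 17062, 9299.7 and 10290.0 and from 24257 to 21036 and 16573 and did not pass. Both calls were lost without control 1 or control 2 (limma adjusted p 0.143 to 0.402 and 0.252 to 0.44).

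In the ubiquitin and autophagy list 3 of 16 tested rose over 5 arrays: SQSTM1, MAP1LC3B and ZFAND2A. MAP1LC3B, the LC3 protein of autophagosomes, went from 4339 to 8280.5, 9395 and 8270.4 with ATO and from 7138 to 13708 and 13049 with DAR (0.96, SE 0.19, limma adjusted p = 0.0153). ZFAND2A, named AIRAP as an arsenite-induced proteasome partner, went from 606 to 2175, 996 and 714 and from 942 to 2931 and 1251, with 6 hours highest in each set. Of 25 proteasome subunits tested none passed in any direction. On all 5 arrays 15 read above control and 0 below, against 11.3% and 10.6% of all genes. The subunits' median was 0.38 at 24 hours of ATO and 0.06 at 24 hours of DAR. The direction depended on the control: the list's median was -0.69 in control 2 against control 1, and with both controls as baseline its median over ATO turned from 0.29 to -0.06. MAP1LC3B and ZFAND2A lost their calls without control 1 (limma adjusted p 0.398 to 0.455) and without control 2 (0.185 to 0.282).

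Sterol synthesis genes fell with ATO. Of 19 listed 14 were tested, 6 fell with ATO, 4 fell over the 5 arrays, and none rose. The list's median was 0.93 higher in control 2 than in control 1. With both controls as baseline its medians over ATO and DAR were -0.79 and -0.84, in place of -1.02 and -0.34. How far ATO and DAR differ here thus depended on the control. INSIG1, the sensor that holds SREBP in the reticulum, read 8208 in control 2 and 1801, 965 and 1518 after 6, 24 and 48 hours of ATO. It read 3435 in control 1 and 2594 and 1889 after 6 and 24 hours of DAR. All 5 treated arrays were below their controls, and control 2 was well above control 1. The change was -2.54 with ATO (SE 0.30, limma adjusted p = 0.000238) and -0.63 with DAR (adjusted p = 0.582).

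IDI1, which isomerises isopentenyl diphosphate, had controls close to each other and read 4859 in control 2 and 1356, 1248 and 1700.2 after 6, 24 and 48 hours of ATO, and 4897 in control 1 and 1988 and 3541 after 6 and 24 hours of DAR. Its ATO change was -1.75 (SE 0.30, limma adjusted p = 0.00839). MSMO1, a sterol demethylase, went from 8418 to 3326, 2148 and 3068 (-1.58, adjusted p = 0.0163) and HMGCS1, which makes HMG-CoA, from 2034 to 870.3, 549.5 and 995 (-1.35, 0.0319). SQLE, squalene epoxidase (-1.36, 0.0239), and FDPS, farnesyl diphosphate synthase (-1.13, 0.018), fell as well. Of the 6, INSIG1 and IDI1 kept the ATO call whichever treated array was left out, and the other 4 lost it without the 24-hour array (limma adjusted p 0.0868 to 0.138) or the 48-hour array (0.0638 to 0.0875). FASN, the fatty acid synthase, went from 2766 to 1079, 489 and 897 with ATO and from 439.8 to 229.7 and 261 with DAR, with controls 2.58 apart on the log2 scale, and fell over 5 arrays by 1.39 (adjusted p = 0.0398). A second FASN probe set had 0.51 over 5 arrays on the U266 arrays alone and did not pass. Over 5 arrays the sterol calls and FASN were lost without control 2 (limma adjusted p 0.291 to 0.434), and all but INSIG1 without control 1 (0.113 to 0.483).

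**Figure D2:**
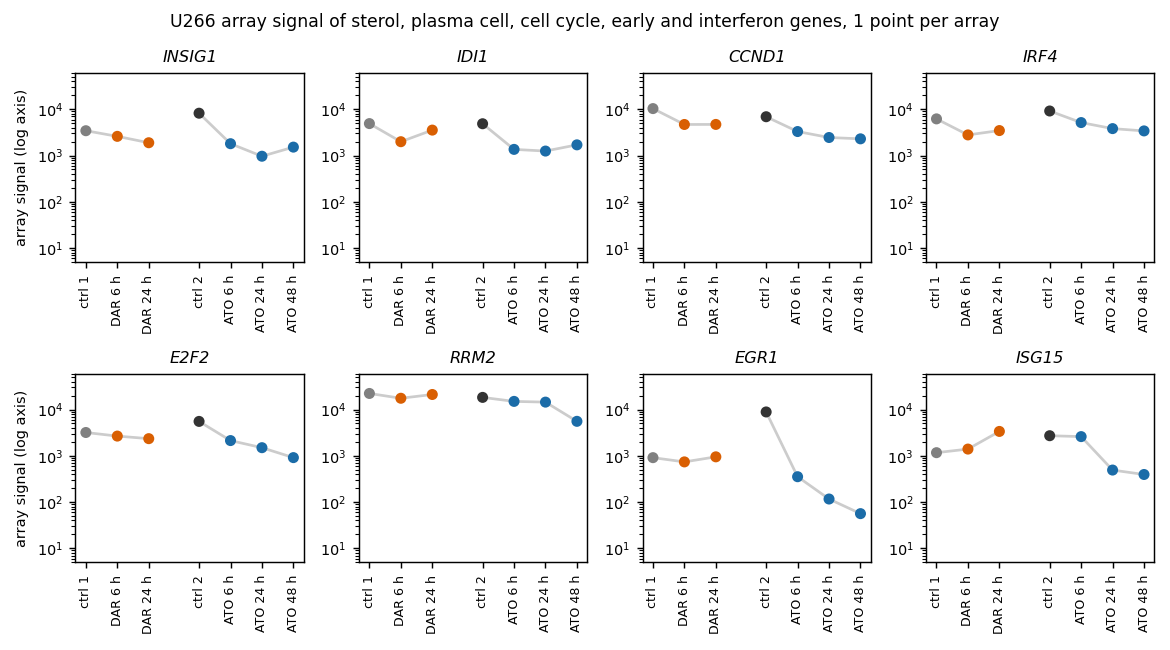
Signal of 8 genes that read lower on every ATO array of U266 than in control 2, on a log axis. Each point is 1 array, in the order control 1, DAR at 6 and 24 hours, control 2, ATO at 6, 24 and 48 hours. INSIG1, IDI1, E2F2 and EGR1 fell with ATO, CCND1 and IRF4 read below control on all 5 treated arrays, and the EGR1 controls read 913 and 8868.

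Plasma cell identity genes leaned down, with IRF4 and PRDM1 falling. Of 19 tested, 2 fell and none rose over the 5 arrays, and 8 read below control on every treated array against 10.6% of all genes. IRF4, the factor myeloma cells depend on, read 9164 in control 2 and 5152, 3815 and 3402 after 6, 24 and 48 hours of ATO. It read 6190.5 in control 1 and 2787 and 3462 after 6 and 24 hours of DAR, so all 5 treated arrays were below both controls. The change over 5 arrays was -1.11 (SE 0.19, limma adjusted p = 0.00453), at -1.17 with ATO and -0.99 with DAR.

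PRDM1, the BLIMP1 repressor, went from 6334 to 3664, 3204 and 3486 with ATO and from 4782 to 2858 and 2931 with DAR (-0.83, SE 0.14, limma adjusted p = 0.00364). Its other 2 probe sets had -0.55 and 0.38 over 5 arrays on the U266 arrays alone and did not pass. Other members did not pass: TNFRSF17, the BCMA receptor, went from 12934 to 7798, 6871 and 3583 with ATO and from 26134 to 23619 and 20934 with DAR (adjusted p = 0.122). MZB1, a plasma cell chaperone, went from 346 to 205, 28.3 and 13.7 with ATO (adjusted p = 0.0894), and JCHAIN, which links antibody units, from 17060.0 to 17890.0, 12131 and 3928, lowest on the 48-hour array. SLAMF7, the target of elotuzumab, was the exception, since all 5 arrays read above control. It rose with DAR from 2596 to 12337 and 5691 (1.68, SE 0.28, limma adjusted p = 0.0345, lost without either DAR array at 0.151 and 0.1) and with ATO went from 1134 to 2123, 1159 and 2007.

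CCND1, cyclin D1, read 6890.0 in control 2 and 3298, 2449.9 and 2294 after 6, 24 and 48 hours of ATO, and 10331 in control 1 and 4685 and 4698 after 6 and 24 hours of DAR. It was 1 of 5 genes of 15437 (0.0324%) below control by at least 1 log2 unit on every treated array, with ATP13A4, EDA2R, GNG12 and APOD. Its change was -1.32 (SE 0.26, limma adjusted p = 0.0157). Without control 1 the falls of IRF4, PRDM1 and CCND1 no longer passed (limma adjusted p 0.243 to 0.594), nor did they without control 2 (0.107 to 0.185).

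Cell cycle genes of G1/S and DNA replication read lower on the ATO arrays with time. Of 27 tested, E2F2 and CCNE2 fell over the 5 arrays, E2F2 fell with ATO, and 18 read below control on every treated array against 10.6% of all genes. The list's median was -0.36, -0.66 and -1.27 at 6, 24 and 48 hours of ATO, and -0.25 and -0.28 at 6 and 24 hours of DAR. E2F2, an activator of S-phase genes, read 5540.3 in control 2 and 2135, 1499 and 914 after 6, 24 and 48 hours of ATO, and 3191 in control 1 and 2669 and 2349 after 6 and 24 hours of DAR. Its ATO change was -1.93 (SE 0.26, limma adjusted p = 0.0011), kept whichever treated array was left out.

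CCNE2, cyclin E2, went from 2036 to 1313, 1075 and 569.9 with ATO and from 3801 to 3065 and 1510.1 with DAR (-0.97 over 5 arrays, limma adjusted p = 0.0243). That call was lost without control 1 (0.275) or control 2 (0.484), and that of E2F2 over 5 arrays without control 2 (0.741). RRM2, a subunit of ribonucleotide reductase, went from 18307 to 15000.0, 14463 and 5562 with ATO, MCM5 of the replicative helicase from 3683 to 4079, 2528 and 1375, and CDC6, a licensing factor, from 1656 to 1142, 662 and 271. None of these 3 passed, and each was lowest at 48 hours. Of 27 G2/M genes none passed, and their median was -0.14 and -0.82 at 24 and 48 hours of ATO and -0.38 and 0.64 at 6 and 24 hours of DAR.

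Late ATO changes, of 1.5 or more at 48 hours with under 0.5 at 6 hours, numbered 73 genes higher and 106 lower on these single arrays. CDC25A, the phosphatase that opens G1, went from 943 to 773, 414 and 87.3. CEP128, a centriole protein, went from 796 to 711, 327 and 67.2, and IGLL3P, an immunoglobulin lambda-like locus, from 25433 to 20656, 6252 and 2564. Among late rises, LAMB3, a laminin chain, went from 227 to 239, 727 and 1449.9, ID1, an inhibitor of differentiation factors, from 98.4 to 106, 279 and 675, and MAFF, a small MAF protein, from 499 to 711, 1373 and 2405. With DAR MAFF went from 798 to 4288 and 1184, high at 6 hours. These late genes are described by size and carry no test of time, since each time had 1 array.

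Immediate early genes fell with ATO from a control that was itself high. Of 17 tested, EGR1, FOS and IER2 fell with ATO, and with DAR DUSP1 rose. EGR1, a zinc finger factor of growth signals, read 8868 in control 2 and 354, 116 and 56.3 after 6, 24 and 48 hours of ATO, and 913 in control 1 and 739 and 951 after 6 and 24 hours of DAR. The ATO arrays were below both controls and both DAR arrays, and control 2 was 3.24 log2 units above control 1. The ATO change was -5.73 (SE 0.61, limma adjusted p = 7.02e-05). FOS, the AP-1 partner, went from 1996 to 55.8, 39.2 and 28.5 with ATO, against 15.3 in control 1 and 135 and 155 with DAR, so its ATO arrays lay above control 1 and below control 2.

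IER2 went from 11214 to 2816, 2285 and 2032 with ATO (-2.24, SE 0.28, limma adjusted p = 0.000608), and read 1836 in control 1 and 3547 and 1939.8 after 6 and 24 hours of DAR. Its ATO arrays thus lay above control 1. On the U266 arrays alone, EGR1 and FOS passed for ATO, and with both controls as 1 baseline neither did (limma adjusted p = 0.146 and 0.496). With both controls as baseline the list's ATO median was -0.36, against -0.61 from control 2 alone. DUSP1, which switches off MAP kinases, went from 219 to 1391 and 656 with DAR (1.99, SE 0.34, limma adjusted p = 0.0345), and lost the call without the 6-hour or 24-hour DAR array (0.151 and 0.105). The rise rests on 1 probe set, and the other 2 of DUSP1 had DAR changes of -0.32 and 0.17. JUN went from 1519 to 10626 and 2073 and KLF6 from 3907 to 12282 and 3718 with DAR, high at 6 hours, and from 3172 to 1653, 1338 and 1069 and 5625 to 2652, 3553 and 3686 with ATO. MAFG, the small MAF partner of NRF2, rose over 5 arrays by 0.82 (adjusted p = 0.0251, and 0.319 and 0.437 without control 1 or 2).

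In the NF-kB list NFKBIZ fell with ATO and TRAF1 rose with DAR, of 17 tested. NFKBIZ, a nuclear IkB protein, went from 2271 to 862, 784 and 831 (-1.43, SE 0.23, limma adjusted p = 0.0058) and with DAR from 1307 to 1557 and 1342. TRAF1, a signalling adaptor, went from 61.1 to 1098 and 215 with DAR (2.54, SE 0.46, adjusted p = 0.0387, and 0.2 without the 6-hour array). With ATO it went from 297 to 425, 499 and 734. CCL4, a chemokine, was high on the 6-hour DAR array alone, from 1335 to 12565 and 1731. None of 17 IL-6 and STAT3 genes passed, and SOCS1, the feedback inhibitor, went from 162 to 57.2, 24.9 and 75.9 with ATO and from 166 to 111 and 115 with DAR.

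Interferon response genes did not pass in U266, and the direction of their medians depended on the control taken as baseline. Over 23 tested the median was -0.21, -0.91 and -0.79 with ATO and 0.21 and 0.67 with DAR. The same genes had a median 1.04 higher in control 2 than in control 1, and with both controls as baseline the medians over ATO and DAR were -0.20 and -0.12, in place of -0.63 and 0.41. ISG15, a ubiquitin-like modifier, read 2719 in control 2 and 2600.4, 492 and 395 after 6, 24 and 48 hours of ATO, and 1169 in control 1 and 1398 and 3365 after 6 and 24 hours of DAR. The 2 later ATO arrays were below both controls, and the 24-hour DAR array was above both. USP18, which removes ISG15 from proteins, went from 1919 to 446, 431 and 525 with ATO and from 652 to 377 and 1209.9 with DAR (-1.98 with ATO, limma adjusted p = 0.149). IRF7, the master factor of interferon genes, went from 2280.4 to 924, 852 and 969 and from 973 to 1201 and 1810.3 (-1.29, adjusted p = 0.0691). IFIT1 went from 1448 to 505, 94.2 and 55.5 and from 356 to 432 and 1546, while OAS1 went the other way, from 2616 to 3163, 4436 and 4989.6 with ATO.

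Genes of cell death showed few calls. Of 15 death receptor and caspase genes tested, TNFRSF1A and FADD rose over 5 arrays. TNFRSF1A, the TNF receptor, also rose with ATO, from 81.1 to 315, 271 and 299 (1.56, SE 0.27, limma adjusted p = 0.00958), and with DAR went from 24.6 to 87.7 and 51.2. FADD, the adaptor of death receptors, went from 575 to 958, 807 and 1052 and from 1145 to 2539 and 1351 (0.68, adjusted p = 0.0459). Without control 2 neither passed over 5 arrays (limma adjusted p 0.204 to 0.374), and FADD did not without control 1 (0.582). None of 9 pro-death and 4 pro-survival BCL2 family genes passed: PMAIP1, the NOXA protein, went from 1862 to 1553, 1177 and 1420.0 with ATO and from 4775 to 8588 and 5308 with DAR, MCL1 from 15894 to 9956, 11021 and 9115 and from 11880.0 to 8787 and 11046, and BCL2 from 2057 to 2804, 3143 and 3919 and from 3160.0 to 3686 and 3513. No p53 target passed among 16, with CDKN1A, the p21 inhibitor, from 610.3 to 2517 and 775 with DAR and from 2681 to 1642, 1509.8 and 849 with ATO.

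Of 16 tested genes for arsenic entry, methylation and glutathione, AQP3 alone passed. AQP3, a channel for glycerol and arsenite, read 6126 in control 2 and 2809, 1721 and 989 after 6, 24 and 48 hours of ATO, and 10300.0 in control 1 and 6758 and 6236 after 6 and 24 hours of DAR. All 5 treated arrays were below their controls, with an ATO change of -1.84 (SE 0.35, limma adjusted p = 0.0188), which was 0.0536 without the 24-hour and 0.0782 without the 48-hour array. The efflux pump ABCC1 went from 1152 to 1073, 1420.2 and 1526 with ATO and GSTP1, a glutathione transferase, from 8224 to 8643, 11422 and 14178, neither called. HK2, the hexokinase bound to mitochondria, fell with ATO from 1559.8 to 224, 89.7 and 282 (-2.91, SE 0.46, adjusted p = 0.00456, limma), but read 171 in control 1 and 117 and 86.3 after 6 and 24 hours of DAR, so control 2 was the high array. The other 2 HK2 probe sets had ATO changes of 0.00 and -0.51 and did not pass. PFKFB3, which drives glycolysis and is outside the lists, likewise fell from 744 to 140.3, 38.3 and 208 (-2.47, adjusted p = 0.0112), with 127 in control 1. No other of 21 listed glycolysis and hypoxia genes tested, and none of 15 MYC and ribosome genes, passed.

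Outside the lists, LINC00304, a long noncoding RNA, rose with ATO from 73.5 to 7046, 7173 and 4509 and with DAR went from 127 to 634 and 164 (ATO change 5.90, SE 0.68, limma adjusted p = 0.000185). Its other 2 probe sets had ATO changes of 0.37 and -0.28 and did not pass. GPAT3, which starts triglyceride synthesis, rose from 67.6 to 542, 404 and 484 (2.38, adjusted p = 0.00324), and SLCO2B1, an organic anion carrier, from 794 to 2032, 2909.6 and 4601 (1.88, 0.0132). SLCO2B1 went from 598 to 1752 and 2335 with DAR, and was 1 of 10 genes (0.0648%) above control by at least 1 on every treated array, with LCAL1, POPDC2, C6orf52, SERPINB9P1, LY96, PIK3C2B, COL12A1, TMEM254-AS1 and GEM. LCAL1, a noncoding RNA, went from 412 to 1996, 2212 and 2671 and from 347 to 4064 and 1087 (2.43 over 5 arrays, limma adjusted p = 0.00243). LY96, the partner of TLR4, went from 1721 to 3606, 8888 and 8702 and from 3599 to 8762 and 7981 (1.56, adjusted p = 0.00562). Without control 2 LCAL1, SLCO2B1 and LY96 were at adjusted p 0.195 to 0.593 over 5 arrays (limma).

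PSMB8-AS1, antisense to an immunoproteasome gene, fell with ATO from 1385 to 201, 339.9 and 226 and with DAR went from 1254 to 468 and 1205 (-2.34, SE 0.32, limma adjusted p = 0.0011). A second PSMB8-AS1 probe set had 0.21 and did not pass. GLCCI1, a glucocorticoid-induced gene, went from 11684 to 4430.4, 4281 and 3035 and from 15465 to 7003 and 9372, every treated array below both controls (-1.59, adjusted p = 0.00487). GLDC, the glycine cleavage enzyme, the histone gene H2BC21 and the chemokine receptor CCR2 fell over 5 arrays, with log2 changes of -1.62, -1.43 and -1.24 (limma adjusted p = 0.0278, 0.0132 and 0.0375). CCR2 went from 8021 to 2423, 2963 and 3616 with ATO and from 10951 to 5136 and 7200.0 with DAR. These 3 and GLCCI1 lost the call over 5 arrays without either control (adjusted p 0.124 to 0.711 and 0.099 to 0.434, limma), and PSMB8-AS1 without control 2 (0.287).

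With DAR the called genes were few and uneven in kind. P4HA2, a collagen prolyl hydroxylase, rose from 631 to 5357 and 2709.9 (2.54, SE 0.42, limma adjusted p = 0.0345), while with ATO it went from 1446 to 1665, 1836 and 1373. CLU, the secreted chaperone clusterin, rose with both, from 2122 to 5065 and 4625 with DAR and from 2039 to 2975, 5048 and 4646 with ATO (1.18 and 1.00, adjusted p = 0.0345 and 0.0194). BAG3 rose (2.14, 0.0477), as did TMOD1, which caps actin, from 257 to 1183 and 978. DPP9, a dipeptidase, fell from 769 to 95.5 and 86.0, and STARD5, a sterol carrier, from 144 to 12.4 and 14.3. BCL11A, a zinc finger repressor, fell from 134 to 20.4 and 37.0 and ST3GAL3, a sialyltransferase, from 308 to 82.3 and 70.2. The falls of DPP9, BCL11A and ST3GAL3 and the rise of P4HA2 rest on 1 probe set each, since the genes' other probe sets did not pass and had DAR changes of 0.08 and 0.03 (DPP9), -0.28, 0.45 and 0.55 (BCL11A), -0.23, 0.01, 0.43 and 0.12 (ST3GAL3) and 0.04 (P4HA2). Each DAR call named here was lost without at least 1 DAR array, and offsets of 1 and 100 in place of 29 gave 212 and 2 probe sets in place of 39.

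**Figure D3:**
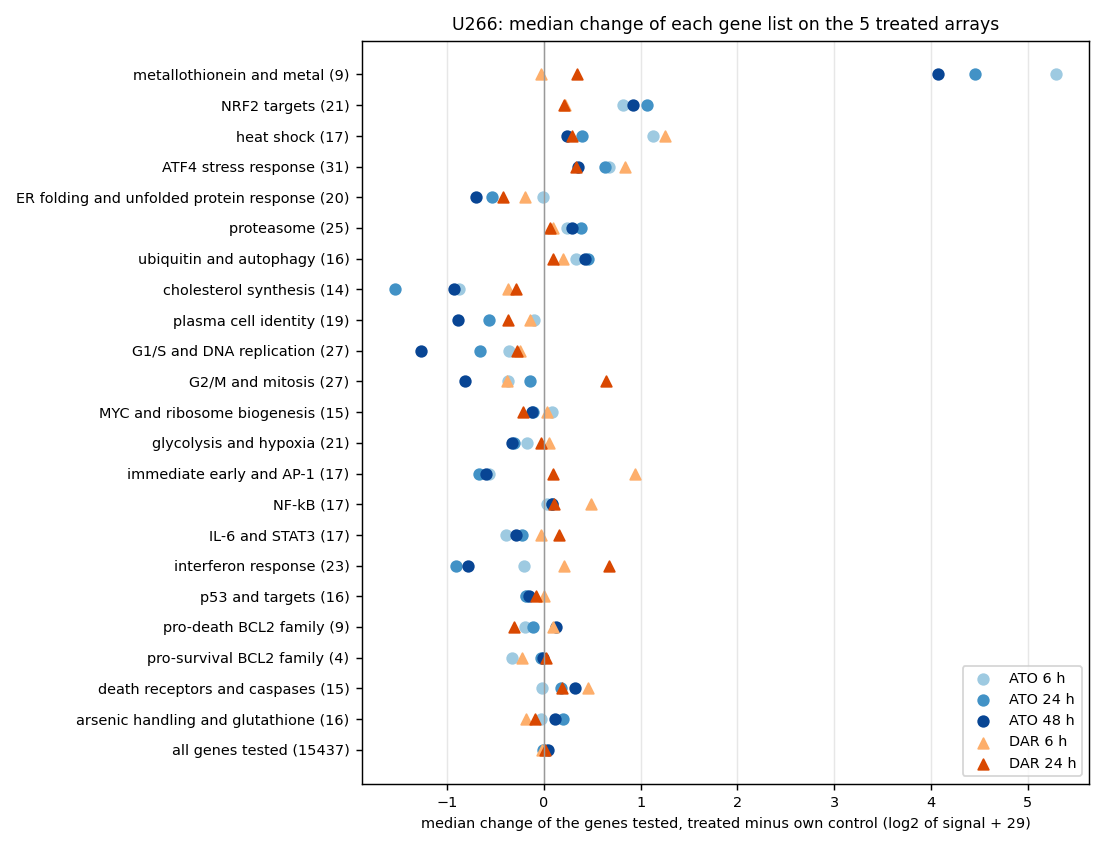
Median log2 change of each gene list on the 5 treated U266 arrays, with all tested genes for scale. Each point is 1 list on 1 array. The metallothionein list reached 5.30 at 6 hours of ATO and -0.04 at 6 hours of DAR, and the sterol list was lowest at 24 hours of ATO (-1.54).

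Set beside MM.1s, KMS11 and 8226/S under the same 2 µM of ATO, no probe set passed for a different response in U266 when each line was 1 value (0 of 36703, limma; 4.5% at an unadjusted p under 0.05). The design has 3 other lines and 2 residual degrees of freedom. Of the genes, 612 (3.96%) had an unadjusted p under 0.05 and 119 (0.771%) one under 0.01, and 61 of the 119 lay above and 51 below all 3 other lines at every ATO time. The genes named from here to the end were not called in that test.

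Metallothioneins were higher with ATO in all 4 lines, by varied amounts. MT2A had an ATO change of 5.35 in U266, 5.90 in MM.1s, 5.46 in KMS11 and 2.55 in 8226/S, so U266 lay inside the range. The metal list's median ATO change was highest in U266, at 4.61 against 3.98, 2.41 and 2.55. Of its 9 genes tested 3 lay above all 3 other lines at every time and 0 below, against 6.35% and 6.1% of all genes. HMOX1 had 3.66 against 5.80, 5.53 and 3.15. The changes of NRF2 targets NQO1, GCLM and TALDO1 lay below all 3 other lines at every time: TALDO1 had -0.14 against 1.48, 1.41 and 0.39 (limma unadjusted p = 0.0814). Their starting levels differed. The GCLM controls had a mean signal of 3719 in U266 and 909, 2256 and 2830 in MM.1s, KMS11 and 8226/S. Those of NQO1 had 1475 in U266 and 664, 2104.5 and 2977 in the others. In all, 5 of 21 NRF2 targets lay below at every time and 0 above, against 6.1% and 6.35% of all genes.

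Several immediate early genes had lower ATO changes in U266 than elsewhere. ZFP36, which destabilises cytokine RNA, had -1.85 against 0.38, 0.43 and 0.83 (difference -2.40, SE 0.33, unadjusted p = 0.000439, limma adjusted p = 1). IER2 had -2.24 against -0.12, -0.09 and -0.10, and JUNB -1.62 against 0.38, -0.30 and 0.11. In U266 control 2 exceeded control 1 by 1.77, 2.59 and 2.52 log2 units in these 3 genes, and the part of this in the difference was not tested. The list held 6 of 17 genes below all other lines at every time and 0 above, against 6.1% and 6.35% of all genes.

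Among interferon genes 11 of 23 lay below all other lines at every ATO time and 1, OAS1, above, against 6.1% and 6.35% of all genes. The list's median ATO change was -0.63 in U266 against 0.17, 0.23 and 0.16 in MM.1s, KMS11 and 8226/S. USP18 had -1.98 against 0.26, 0.04 and -0.09 (unadjusted p = 0.00101), and ISG15, below them at 24 and 48 hours, -1.72 against 0.15, -0.01 and 0.20 (unadjusted p = 0.00109). IFI44 had -0.79 against 1.32, 0.92 and 0.73. In U266 the 23 genes had a median 1.04 higher in control 2 than in control 1, and the part of this in the difference was not tested.

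SLAMF7 had an ATO change of 0.58 in U266 and -0.65, -0.62 and -0.88 in the other lines (unadjusted p = 0.00706), and TRAF1 0.80 against -0.95, -0.33 and -0.54. The SLAMF7 controls had a mean signal of 66.2 in 8226/S, against 1865 in U266, 12149 in MM.1s and 2938 in KMS11. CCNE2 had -1.10 against -0.13, 0.24 and 0.55. Of 27 G1/S genes 8 lay below all other lines at every time and 0 above, against 6.1% and 6.35% of all genes. The G1/S median over ATO was -0.78 in U266 and -0.66, -0.42 and 0.00 in the others. EDEM1 had 0.87 against -0.64, -0.02 and 0.22. Sterol genes lay inside the range, with a median of -1.02 against -1.59, -1.11 and -0.34, none of 14 outside at every time.

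**Figure D4:**
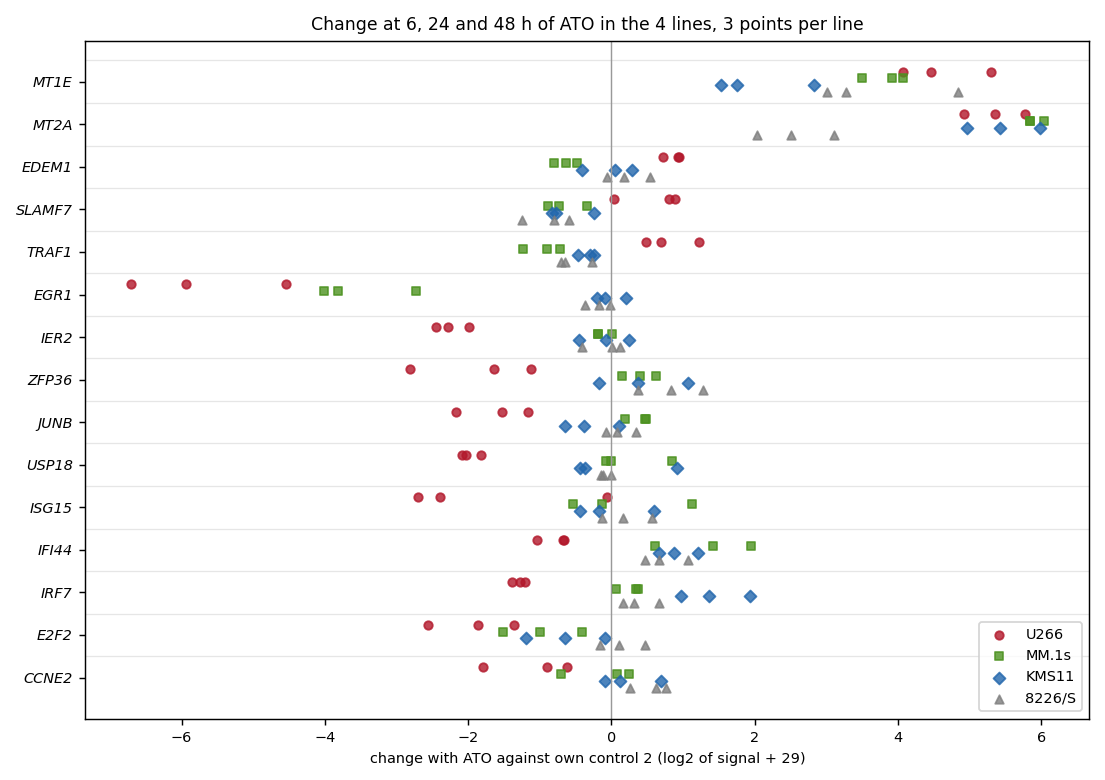
Change with ATO from control 2, on the log2 scale, of 15 genes in U266, MM.1s, KMS11 and 8226/S at 6, 24 and 48 hours, each point 1 array. ZFP36, IER2, USP18 and IFI44 lay below the other 3 lines in U266, SLAMF7 above, and MT2A within their range.

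The DAR doses differed between lines, so those values stand side by side with no comparison. At 6 hours BAG3 changed by 3.22 in U266 at 4 µM, 2.70 in MM.1s and 3.31 in KMS11 at 3 µM, and 2.29 in 8226/S at 2 µM. HMOX1 changed by 3.27, 2.11, 4.48 and 1.81 in that order. SLAMF7 changed by 2.24, 0.71, 1.59 and 2.38, the last from a low signal (mean of 66.2 in the 8226/S controls). MT2A changed by 0.84, 0.60, -0.04 and -0.34.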

How the data were processed

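RNA of 28 samples was hybridised to Affymetrix HG-U133 Plus 2.0 arrays. The authors deposited one linear intensity per probe set, made with GCOS per the submitters' processing notes; no further step is given in the sources used here. Values were taken as log2(intensity + 29). A probe set was tested if it exceeded the 50th percentile of the array on at least 4 arrays (36703 of 54675). Probe sets were named through the platform table: 41097 have 1 symbol, 1801 several and 11777 none, and the brightest probe set stands for each gene (15437 genes). Tests used limma 3.58.1 in R 4.3.3, with each control as the baseline of the arrays that share its number, since all 5 treated arrays correlate better with it. The U266 fit has 4 residual degrees of freedom (3 by compound). The fit with the spread of 4 lines (12 and 9) was added after the values were seen, and so were the genes named from it. That fit has treatment terms shared by the 4 lines. Alternatives changed the offset, scaling, filter, trend and block and left out each array. The scripts were tested on simulated data. Named genes are the 12 largest called changes in each direction, the called members of each list, early and late changes, the 10 largest differences from the other lines in each direction, and a short fixed set; the others named were chosen after their values were seen. Members and lists were chosen with earlier results of these data known. Promoters are RefSeq's.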

Additional observations from a re-analysis of the deposited data

Results flagged for a closer look

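With the array in place of the line as the unit, 5 probe sets passed for a different ATO response in U266 than in the other 3 lines (limma). They were EGR1 at a second probe set (difference -2.64 on the log2 scale, adjusted p = 0.0214), IER2 (-2.13, adjusted p = 0.00539), MT1E at a second probe set (3.94, adjusted p = 0.00539), TMTC1 (-2.18, adjusted p = 0.0413) and SOX2 (2.67, adjusted p = 0.0208). Times of 1 line share a control, so these p-values treat arrays as more independent than they are, and with 1 value per line each had an adjusted p of 1. The EGR1 probe set read 142 in control 1 and 1161 in control 2, and SOX2 read 53.5 and 7.57, near the bottom of the scale. The interferon list's median ATO change of -0.628 in U266 lay apart from 0.172, 0.230 and 0.158 in the other lines, with a gap of 0.916 of the range, above Dixon's critical value for 4 values. It was 1 of 23 sets of medians looked at this way (22 lists and all genes), and chance flags about 1 in 20.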

How the results depend on the processing

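No gene named here and called changed sign in the alternatives run, but some list medians, which carry no test, did. Called genes that are not named were not checked for sign. The fit with the spread of 4 lines was not run with both controls as 1 baseline. With both controls as 1 baseline the ATO medians of the proteasome (0.29 to -0.06) and IL-6 and STAT3 lists (-0.34 to 0.01) turned. So did the DAR medians of the metallothionein (0.17 to -0.38), MYC and ribosome (-0.15 to 0.08), glycolysis (0.06 to -0.34), IL-6 and STAT3 (0.13 to -0.14), interferon (0.41 to -0.12) and p53 lists (-0.05 to 0.03). Median centring turned the DAR medians of the p53 list (to 0.05), the pro-death list (-0.09 to 0.01), the arsenic handling list (-0.08 to 0.02) and all genes (-0.01 to 0.09). Over the 5 treated arrays against control, U266 alone gave 0 probe sets, and the spread of 4 lines gave 260. When 1 array was left out U266 alone gave 0 to 24, with 13 without DAR at 24 hours. The 24 came without control 1, when only the ATO arrays have a baseline. For ATO, U266 alone gave 23: 15 with no filter, 11 genes at 1 probe set each, 8 without the trend, 9 to 95 with 1 array left out and 148 with the spread of 4 lines. For DAR it gave 0, and 39 with that spread. With the spread of 4 lines, leaving out the trend gave 47, 37 and 2 for all 5 arrays, ATO and DAR, and leaving out 1 array gave 24 to 394, 77 to 289 and 8 to 39. For DAR in that fit, offsets of 1 and 100 gave 212 and 2, and median centring 62. With the array as the unit 5 probe sets differed between U266 and the other lines, in place of 0. Without the replicate block, with both controls as 1 baseline, ATO had 29 calls, 16 of them shared. Genes changed by 1 or more on a single array, higher and lower, with an offset of 1 numbered 869 and 731 (ATO 6 hours), 835 and 1090 (24 hours), 1458 and 1562 (DAR 6 hours) and 1387 and 1365 (24 hours). With an offset of 100 they numbered 182 and 149, 219 and 270, 350 and 408 (ATO 6, 24, 48 hours), 332 and 198, and 171 and 137 (DAR 6, 24 hours). At a change of 2 they numbered 44 and 29, 45 and 57, 79 and 76, 83 and 49, and 49 and 54. The causes were not tested. ATO without control 2 and DAR without control 1 could give no value. Arrays number 1 per treatment and time, which limits the precision.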
